A study of Mus musculus with 8 samples.

Results

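The nuclear-encoded subunits of the respiratory chain were followed across 3 groups of Fah-/- mice with liver injury. The chain sits in the inner mitochondrial membrane. Complex I takes electrons from NADH and complex II from succinate, complex III passes them to cytochrome c, and complex IV hands them to oxygen. Complexes I, III and IV pump protons, and complex V, the ATP synthase, lets them flow back to make ATP. Most subunits are encoded in the nucleus and imported, and hepatocytes, which depend on this ATP for urea synthesis and gluconeogenesis, are rich in mitochondria. Members were chosen by gene symbol (the Nduf, Sdh, Uqcr, Cox and Atp5 families), and the rule itself uses no measured value apart from an expression floor, although the family was picked with earlier results of these data known. Of the 22504 genes listed, 84 matched, and 78 of these reached an FPKM (fragment count divided by gene length and by the sample's mapped fragments) of 1 or more in 2 or more of the 8 samples. These were all 37 genes named as complex I, all 4 of complex II, all 8 of complex III, 12 of 18 of complex IV and all 17 of complex V, among 11007 genes that passed the same floor.

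Fah-/- mice lack fumarylacetoacetate hydrolase, the last enzyme of tyrosine breakdown, and survive on NTBC, which inhibits an enzyme upstream of the toxic product. All mice were of the 129S4 background and carried the deletion, and the labels name no wild-type or uninjured sample. C 8w was liver after 8 weeks of moderate chronic liver injury (MCLI) on 2.5% of the NTBC dose (n = 3), and C 12w was tissue labelled tumor after 12 weeks of MCLI (n = 2). C 8w + A 4w was liver after 8 weeks of MCLI followed by 4 weeks without NTBC, that is severe acute liver injury (SALI, n = 3). In what follows "after SALI" always means C 8w + A 4w. The comparison of C 12w with C 8w is therefore one of longer MCLI and of tumor with liver at once, and these cannot be told apart. C 8w and C 12w carry one series of sample codes and C 8w + A 4w another, so that this series and the SALI step cannot be told apart either.

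Depth is unknown, since FPKM keeps no read numbers, and the summed FPKM of all genes was between 324735 and 399342 per sample. The labels' extraction text speaks of retinas, while the tissue labels say liver or tumor. The summed FPKM of 6 retina markers was between 2.02 and 3.68 in every sample, against between 10207 and 30508 for 11 hepatocyte markers. Without Alb, which was listed at 0 in all 5 MCLI samples, the hepatocyte sum was between 10207 and 15478 in every sample. The 5 cholangiocyte markers summed to between 9.50 and 15.2 in C 8w, to 28.2 in C 12w replicate 2, to 339 in C 12w replicate 3 and to between 26.3 and 32.7 in C 8w + A 4w, so that every C 12w and C 8w + A 4w sample lay above C 8w. C 12w replicate 3 stood apart on the subunits as well. Differences or lost calls without it are given for some of the named subunits only. Most other results that involve C 12w, among them those of the other gene lists, are given with it alone and may rest on it. The 6 macrophage markers summed to between 78.9 and 290, and the stellate cell and endothelial lists are given with each comparison. The lymphocyte and the muscle markers each summed to at most 2.02. In whole tissue, fewer cells of a type and less RNA per cell cannot be told apart.

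Subunit levels were lower in C 12w than in C 8w, in all 5 complexes, and no member was called in the other direction. By limma on log2(FPKM + 1), with adjustment over all 11007 genes and an adjusted p under 0.05, 33 of the 78 subunits were lower and 0 were higher. The share of all tested genes called lower, given as the background throughout, was 6.90%, and that called higher 13.1%. The median difference was -0.62 on the log2(FPKM + 1) scale, against 0.12 over all genes tested, and 75 of the 78 lay below 0. In 58 subunits both C 12w samples lay below all C 8w samples (background 19.1%), and 0 lay above (background 35.3%). A fall of 1 or more on the log2 scale was called in 9 subunits (background 2.08%) and such a rise in 0 (background 3.73%). At an unadjusted p under 0.05 the counts were 58 lower and 0 higher, against 1363 and 2761 of all 11007 genes. By complex, 18 of 37 fell in complex I, 2 of 4 in complex II, 4 of 8 in complex III, 3 of 12 in complex IV and 6 of 17 in complex V. With median-ratio scaling, which moved the median of all genes from 0.12 to 0.01, 41 subunits were lower (background 10.6%) and 0 higher (background 9.88%).

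**Figure D1:**
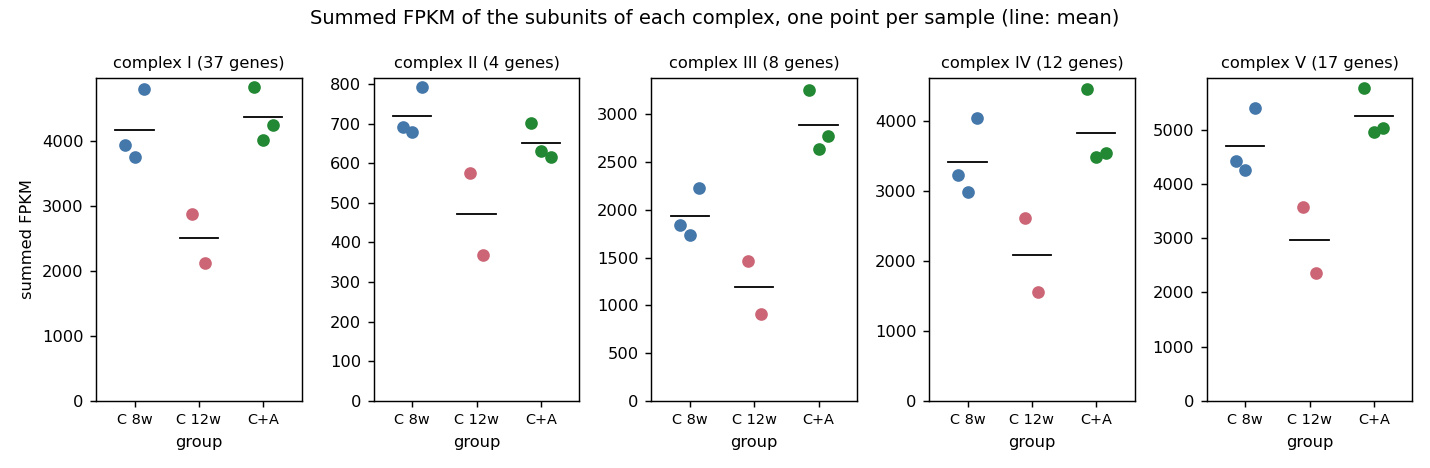
Summed FPKM (vertical axes, from 0) of the tested subunits of each complex in each group, one point per sample, with the mean as a line; C+A is C 8w + A 4w. Both C 12w samples lie below every C 8w sample in each of the 5 complexes, and C 12w replicate 3 is the lower of the pair in each. The C+A sums of complexes I, III, IV and V include subunits with near-identical copies, whose rises are uncertain in size and direction.

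The size of the fall differed between the 2 C 12w samples. The subunits together summed to 14122, 13420.3 and 17281 FPKM in C 8w, 11097 in C 12w replicate 2 and 7331 in replicate 3. In C 8w + A 4w they summed to 19036, 15720.1 and 16217. The C 8w + A 4w sums include subunits with near-identical copies, described below, whose rises are uncertain in size and direction. Of the 78 subunits, 73 were lower in C 12w replicate 3 than in replicate 2 (39.0% of all genes tested were), with a median ratio of 0.655. Leaving out replicate 2 or 3 leaves 1 C 12w sample, so that no count of calls is given for those fits. Leaving out a C 8w sample left between 10 and 17 calls, without a share of all genes to set beside them. The size of the difference and the number of calls thus depended on the sample, and the cholangiocyte markers were highest in replicate 3. The 6 stellate cell and fibroblast markers also moved, from sums of between 11.6 and 16.6 FPKM in C 8w to 21.7 in C 12w replicate 2 and 43.4 in replicate 3, with 3 called higher (Col1a1, Col1a2 and Col3a1) and 0 lower. The 5 endothelial markers went from between 23.6 and 29.0 in C 8w to 20.2 and 19.7 in C 12w, with 2 called lower (Kdr and Stab2) and 0 higher. Of 4 cholangiocyte markers tested, 3 were called higher. Of the 11 hepatocyte markers 1 was called higher (Apob) and 1 lower (Cyp2e1). Their sum was between 11356 and 14060 FPKM in C 8w, 15478 in C 12w replicate 2 and 10207 in replicate 3. The part of these cell types in the result was not tested.

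In complex I, the 7 core subunits that carry the flavin and the iron-sulfur clusters lay lower in both C 12w samples than in all C 8w samples, and 5 of them passed the test. Ndufs7, which holds the last iron-sulfur cluster before ubiquinone, was at 146, 135 and 186 FPKM in C 8w and at 84.9 and 64.6 in C 12w, a log2 difference of -1.05 (SE 0.19, limma adjusted p = 0.00814). Ndufv1, the NADH-binding subunit, was at 130.3, 127 and 147 in C 8w and at 79.8 and 58.7 in C 12w (log2 difference -0.96, SE 0.20, adjusted p = 0.0138). The accessory subunits surround this core and are needed for its assembly and stability, and 13 of the 30 fell.

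Among the accessory subunits the largest falls were in Ndufa5 and Ndufb6. Ndufa5, of the peripheral arm, was at 105, 104 and 139 FPKM in C 8w and at 70.1 and 40.5 in C 12w (log2 difference -1.10, SE 0.24, adjusted p = 0.0173). Ndufb6, of the membrane arm, was at 145, 143 and 196 and then at 97.2 and 59.3 (-1.06, SE 0.25, adjusted p = 0.0226). Groups did not overlap for either gene. Without C 12w replicate 3 neither passed the test, with log2 differences of -0.71 for both.

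Complex II is also the succinate dehydrogenase of the TCA cycle. Sdhc, one of its membrane anchors, was at 45.0, 47.4 and 50.1 FPKM in C 8w and at 27.7 and 24.5 in C 12w. Its log2 difference was -0.84 (SE 0.12, adjusted p = 0.00317), and the groups did not overlap. Sdhb, the iron-sulfur subunit, was at 244, 228 and 313 in C 8w and at 169 and 102 in C 12w (-0.98, SE 0.25, adjusted p = 0.028). Its call was lost without replicate 3. The flavoprotein Sdha was at 161, 166 and 155 in C 8w and at 139.9 and 119.9 in C 12w, and its log2 difference of -0.31 did not pass (adjusted p = 0.128). Sdhd, the other anchor, was at 240.1, 237 and 275 in C 8w, at 239.7 in C 12w replicate 2 and at 122 in replicate 3, so that the groups overlapped.

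In complex III both core proteins and the Rieske protein fell. Uqcrc1, a core protein, was at 183, 167 and 216 FPKM in C 8w and at 103 and 72.7 in C 12w (log2 difference -1.11, SE 0.19, adjusted p = 0.00761). Without replicate 3 its log2 difference was -0.86. The Rieske iron-sulfur protein Uqcrfs1 was at 330.4, 338 and 402 in C 8w and at 225 and 167 in C 12w (-0.87, SE 0.20, adjusted p = 0.0191). The call for Uqcrfs1 was lost without replicate 3.

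Complex IV, cytochrome c oxidase, gave the strongest single fall by adjusted p, in a gene expressed at low levels. Cox6b2, an isoform best known from testis, was at 2.21, 2.30 and 2.72 FPKM in C 8w and at 0.469 and 0.248 in C 12w (log2 difference -1.33, SE 0.13, adjusted p = 0.000882). Cox6a1, the isoform of subunit VIa that liver uses, was at 834, 749.9 and 1006 and then at 591 and 349 (-0.91, SE 0.26, adjusted p = 0.0438). The call for Cox6a1 was lost without any one of 6 samples, including replicate 3, where the log2 difference was -0.53.

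In complex V the largest falls were in Atp5e and Atp5k. Atp5e, the F1 head's epsilon subunit, was at 298, 282 and 386 FPKM in C 8w and at 168 and 93.2 in C 12w. Its log2 difference was -1.34 (SE 0.26, adjusted p = 0.0116), and without replicate 3 it was -0.92. Atp5k, the membrane subunit e that helps synthase dimers to form, was at 477, 484 and 691 in C 8w and at 341 and 172 in C 12w (-1.16, SE 0.30, adjusted p = 0.03). Its log2 difference without replicate 3 was -0.67, which did not pass. The catalytic beta subunit Atp5b was at 1046, 1017 and 1153 in C 8w and at 841 and 699.9 in C 12w, without overlap, and its log2 difference of -0.48 did not pass (adjusted p = 0.0846).

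**Figure D2:**
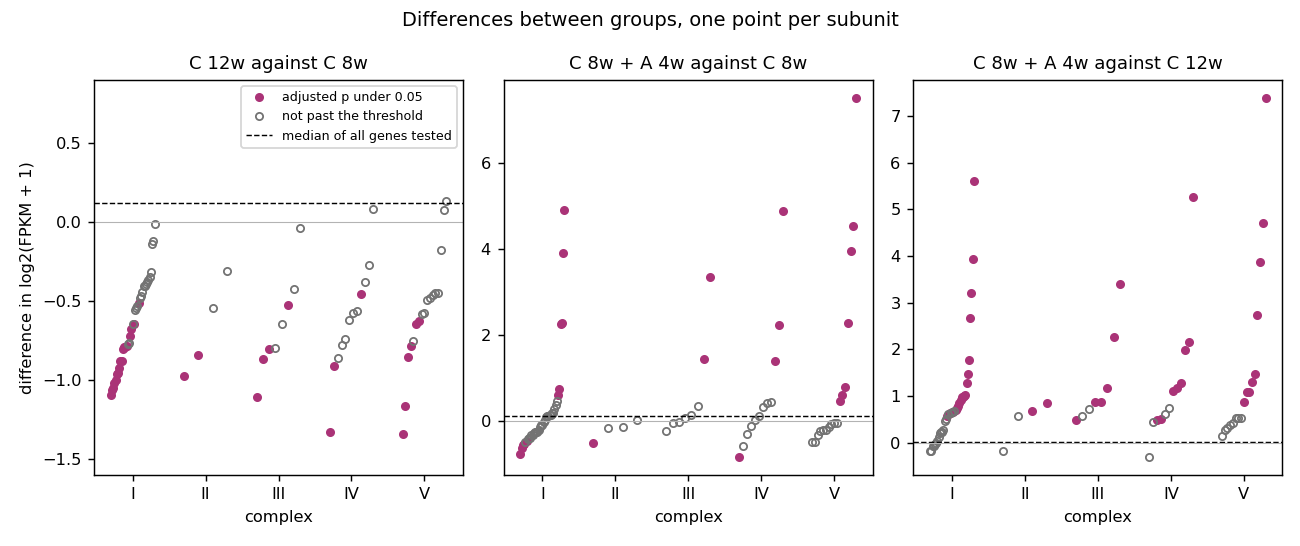
Difference in log2(FPKM + 1) between groups for each tested subunit, by complex, in 3 comparisons whose vertical scales differ; filled points passed an adjusted p under 0.05 and the dashed line is the median of all genes tested. In C 12w against C 8w all filled points lie below 0, while in C 8w + A 4w against C 8w most lie near 0 and a few rise by up to 7.52.

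In C 8w + A 4w against C 8w, called subunits were no more frequent than called genes in general, and most of the large rises were in genes with near-identical copies, described below. Of the family, 18 of 78 subunits rose (background 25.6%) and 7 fell (background 13.5%), both shares being below the background. With only the compared groups in the fit 14 fell, without a share of all genes to set beside them. The median difference was -0.01 against 0.13 over all genes. The centre of the family was thus little moved, while 13 subunits rose by 1 or more on that scale (background 7.09%) and 0 fell by as much (background 4.36%). All 3 samples lay above C 8w in 20 subunits (background 39.4%) and below it in 21 (background 21.7%). Ndufs5 and Atp5g2 passed the expression floor only through C 8w + A 4w, where they were high, so that they had to differ. The stellate cell and fibroblast markers summed to between 8.62 and 18.2 FPKM in C 8w + A 4w, with 0 called higher and 1 lower than in C 8w, and the endothelial markers to between 15.6 and 28.0, with 1 higher and 2 lower. The cholangiocyte markers lay above C 8w without overlap, as given above, with 1 of the 4 tested called higher (Epcam, log2 difference 1.83, limma adjusted p = 0.00588) and 0 lower. Of the 11 hepatocyte markers 2 were called higher than in C 8w (Alb and Apoa1) and 2 lower (Cps1 and Cyp2e1). The part of these cell types was not tested. Without Ndufs5, Atp5g2 and Cox7a1, the last of which passed only through the MCLI groups, 16 of 75 rose and 7 fell. Median-ratio scaling gave 15 rises (background 19.7%) and 11 falls (background 19.8%).

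Of the 7 falls, 3 were in the core of complex I, 2 in its accessory subunits, and 1 each in complexes II and IV. Ndufs1, the largest iron-sulfur subunit, was at 50.9, 54.0 and 57.1 FPKM in C 8w and at 35.9, 37.4 and 37.8 in C 8w + A 4w (log2 difference -0.53, SE 0.11, limma adjusted p = 0.00574). Ndufv1 went to 90.5, 63.1 and 85.3 (-0.76, SE 0.18, adjusted p = 0.0102). The groups did not overlap for either gene. Ndufb10, an accessory subunit of the membrane arm, was at 66.3, 55.8 and 70.1 in C 8w and at 46.1, 35.7 and 42.2 in C 8w + A 4w (-0.62, SE 0.14, adjusted p = 0.00895).

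Sdha, the succinate-oxidizing flavoprotein of complex II, went from 161, 166 and 155 FPKM to 109.8, 109 and 122 (log2 difference -0.49, SE 0.12, adjusted p = 0.0118), and its adjusted p was 0.0511 without C 8w replicate 2. Cox6b2 went to 0.857, 0.871 and 1.03 (-0.83, SE 0.12, adjusted p = 0.00103), above both C 12w samples and below all C 8w samples. The remaining fall, in the accessory subunit Ndufb2, was of -0.46 (adjusted p = 0.0125).

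The 18 rises were 6 in complex I, 2 in complex III, 3 in complex IV and 7 in complex V. Several of these genes were at or near 0 in all 5 MCLI samples, and a possible difference in quantification is described below with their copies. Atp5l, subunit g of the ATP synthase membrane part, was at 1.14, 0.990 and 1.53 FPKM in C 8w, against 2.25 and 0.806 in C 12w and 525, 364 and 350.5 after SALI. Its log2 difference from C 8w was 7.52 (SE 0.24, limma adjusted p = 7.13e-08). Atp5k, its partner in the membrane part, was at 563, 530.5 and 465 in C 8w + A 4w, which overlaps its C 8w values (log2 difference -0.07, adjusted p = 0.858).

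Ndufb4, a membrane-arm accessory subunit of complex I, was at 1.82, 1.45 and 2.26 FPKM in C 8w, against 0.774 and 0.759 in C 12w and 94.5, 85.3 and 75.3 after SALI (log2 difference from C 8w 4.92, SE 0.14, adjusted p = 3.32e-08). Ndufs5, an accessory subunit facing the intermembrane space, was at 0.140, 0 and 0.178 in C 8w, against 0.0944 and 0.0909 in C 12w and 16.9, 15.2 and 15.1 after SALI (log2 difference 3.92), with the floor passed through C 8w + A 4w alone. Both genes were far outside their MCLI range in all 3 samples. Ndufa12 was at between 1.20 and 2.54 in the MCLI samples and at 13.2, 14.5 and 13.3 after SALI (2.27, adjusted p = 2.84e-06). Ndufs3, a core subunit, was at 33.1, 37.1 and 43.6 in C 8w and at 222, 177 and 171 after SALI (2.30, SE 0.21, adjusted p = 8.88e-05).

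In complex III, Uqcrb, which binds ubiquinone, was at 50.6, 51.2 and 63.5 FPKM in C 8w, against 71.3 and 39.9 in C 12w and 645, 559 and 519.9 after SALI (log2 difference from C 8w 3.36, SE 0.22, adjusted p = 9.01e-06). Uqcr11, a small membrane subunit, was at 174, 146 and 208 in C 8w and at 528, 449.7 and 461 after SALI (1.45, SE 0.21, adjusted p = 0.0012). Uqcrc1, Uqcrc2 and Uqcrfs1 overlapped C 8w after SALI, with log2 differences of -0.23, -0.03 and -0.01.

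In complex IV, Cox5b, a matrix-side subunit that binds zinc, was at 2.75, 2.29 and 3.26 FPKM in C 8w, against 2.59 and 1.30 in C 12w and 131, 102 and 97.3 after SALI (log2 difference from C 8w 4.88, SE 0.19, adjusted p = 3.27e-07). Cox7c, a small membrane subunit, was at 0.899, 1.34 and 1.16 in C 8w, against 1.18 and 1.32 in C 12w and 10.7, 8.95 and 7.68 after SALI (2.24, SE 0.14, adjusted p = 7.22e-06). In complex V, Atp5h, subunit d of the peripheral stalk, was at 9.12, 8.55 and 13.1 in C 8w, against 11.8 and 6.53 in C 12w and 296, 247 and 230.2 after SALI (4.54, SE 0.23, adjusted p = 1.73e-06). Atp5f1, the stalk's subunit b, was at 55.8, 55.2 and 72.7 in C 8w and at 335, 279.9 and 289 after SALI (2.29, adjusted p = 7.74e-05). The 5 subunits of the F1 head gave 0 rises and 0 falls, and 0 of either at an unadjusted p under 0.05. Their log2 differences lay between -0.48 and -0.04, all 5 below 0, and 3 of the 5 lay wholly below C 8w (background 21.7%).

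**Figure D3:**
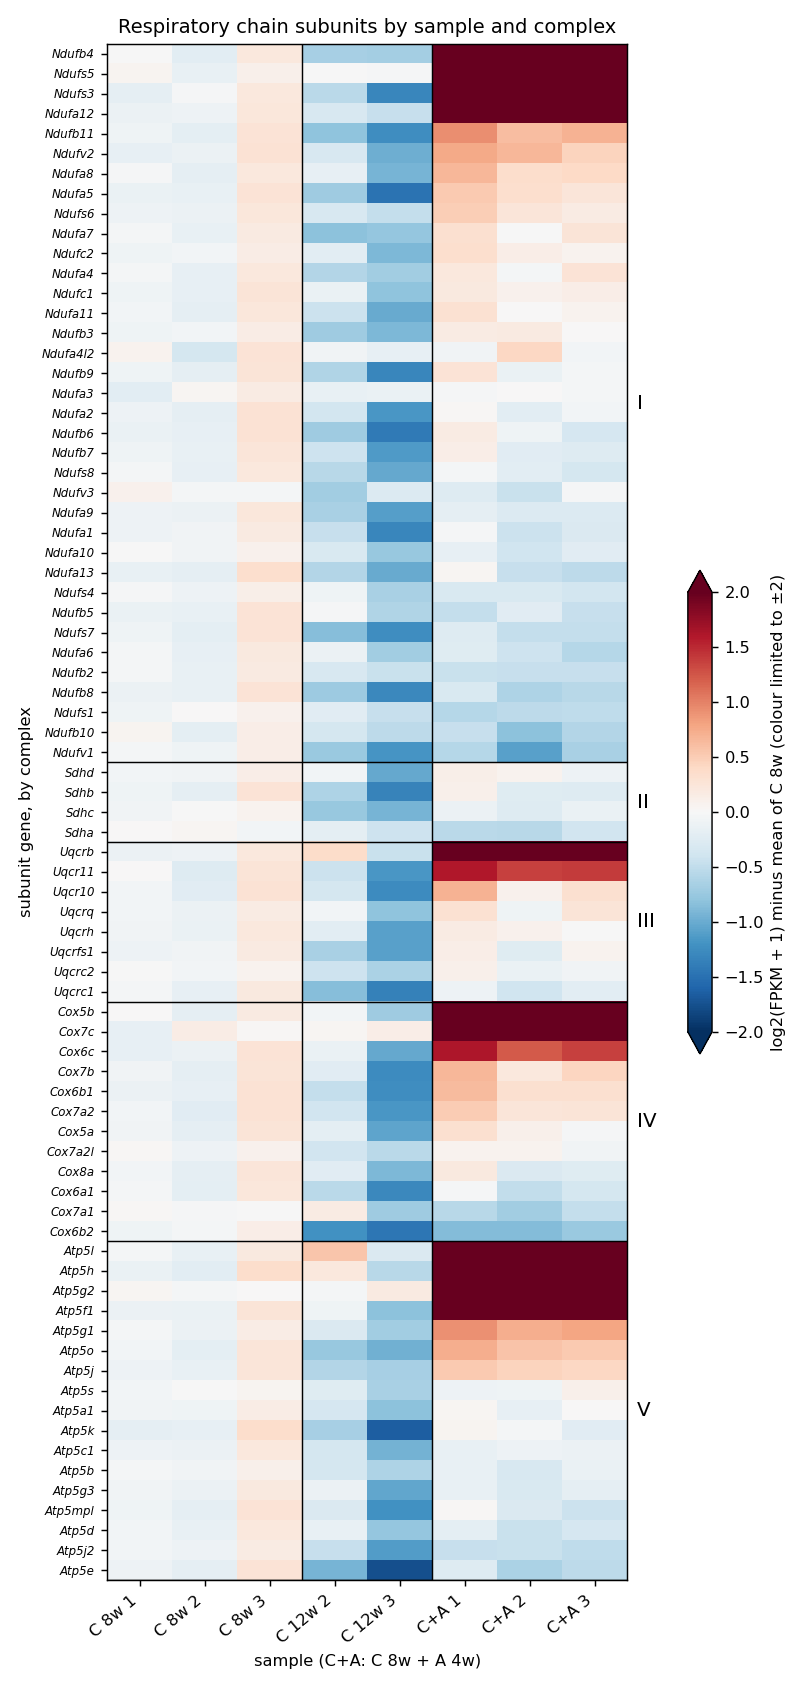
Log2(FPKM + 1) of 77 of the 78 tested subunits (rows, by complex, ordered within a complex by their C 8w + A 4w difference) in each sample (columns), minus the mean of C 8w, with colours limited to ±2. C 12w replicate 3 is the bluest column, and a band of genes at the top of complexes I, III, IV and V is dark red in all 3 C 8w + A 4w samples while most rows stay pale.

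The genes that rose most have near-identical copies elsewhere in the genome. The share of a subunit's 50-base windows, over its GENCODE M21 transcripts, that also occur in a gene on another chromosome or more than 10 kb away was computed for each subunit. This share was above 2% in 25 subunits, of which 16 rose, 0 fell and the median log2 difference from C 8w was 1.40. Of these 16, Ndufs5 and Atp5g2 had to rise through the floor. It was 2% or less in the other 53, of which 2 rose (Ndufv2 and Atp5j), 7 fell and the median was -0.13. Counting windows in any other gene, overlapping neighbours included, 1 of 39 subunits with at most 2% rose (Ndufv2, from 50.1, 51.9 and 69.3 to 96.4, 89.8 and 77.0 FPKM, adjusted p = 0.0378) and 17 of 39 with more than 2% did. Over all genes the 2 shares of rises were 22.3% and 30.8%. Spearman's rho between the share elsewhere and the log2 difference was 0.55 across the 78 subunits, which share libraries and are not independent replicates. The relation had exceptions: Cox7a2l, a factor that joins complexes into supercomplexes, had 13.8% of its windows elsewhere and was at 102, 93.1 and 106 in C 8w and 106, 106 and 95.7 after SALI.

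**Figure D4:**
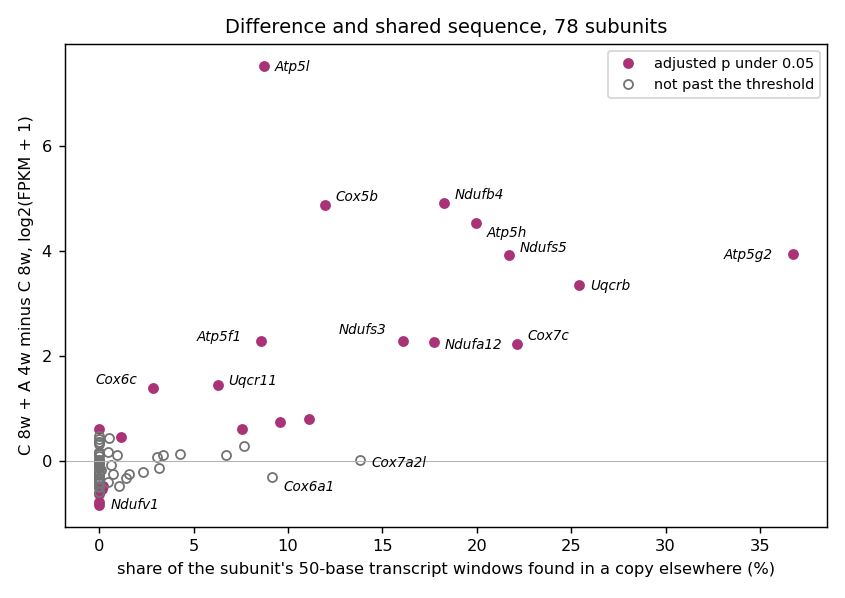
Difference in log2(FPKM + 1) from C 8w to C 8w + A 4w (vertical) against the share of each subunit's 50-base windows found in a copy elsewhere (horizontal, %), one point per tested subunit, filled where the adjusted p was under 0.05. All points above 1 lie to the right of 2%, and Cox7a2l and Cox6a1 are the points furthest right that stayed near 0.

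In 23 of the 25 subunits with more than 2%, the copy with the most shared windows was annotated as a processed pseudogene, a gene copy made by reverse transcription of mRNA. The complete coding sequences of Ndufb4 (390 bases) and Atp5g2 (441 bases) were each found without a difference in a copy, Ndufb4c and Gm10175, at 100% identity. Atp5l was identical to Gm10221 over 309 of its 312 coding bases, and Ndufs5 to BC002163 over 317 of 321. Gm10221, Gm10175, BC002163 and Ndufb4c have no row in the deposited table. The copies of Cox5b and Atp5h that share the most windows do have one. Gm11273 matched 387 of the 390 coding bases of Cox5b, and Gm10250 480 of the 486 of Atp5h. The stretches below are the 60 coding bases of each pair that differ most (GENCODE M21, GRCm38, sense strand), shown because they hold no more than 2 differences for each pair. Capitals mark the bases that differ, and positions in the subunits are counted from the start codon: bases 184 to 243 for Cox5b and 10 to 69 for Atp5h.
Cox5b: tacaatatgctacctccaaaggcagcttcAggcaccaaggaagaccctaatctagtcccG
Gm11273: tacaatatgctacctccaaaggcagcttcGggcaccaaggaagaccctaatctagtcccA
Atp5h: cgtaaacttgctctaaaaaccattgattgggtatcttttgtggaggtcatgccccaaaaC
Gm10250: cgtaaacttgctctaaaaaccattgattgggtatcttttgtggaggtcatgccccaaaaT

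Within these 2 pairs the copy moved opposite to the subunit. A further listed gene with windows of Atp5l, Gm10160, was at 0 in all 8 samples, so that adding it left the rise of Atp5l as it was. Gm11273 was at 537, 579.6 and 791 FPKM in C 8w, against 479.5 and 219 in C 12w and 117, 95.0 and 92.0 after SALI, a log2 difference of -2.62 from C 8w (SE 0.29, limma adjusted p = 0.00025). In the MCLI samples nearly all of the FPKM of the Cox5b pair was listed under the copy, and in C 8w + A 4w it was listed about evenly. The sum of the pair was 638 ± 136 (SD, n = 3) in C 8w, 351 ± 185 (n = 2) in C 12w and 212 ± 32.0 (n = 3) in C 8w + A 4w, so that the sum was lower after SALI although Cox5b itself was higher.

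Gm10250 was at 512, 474 and 598 FPKM in C 8w, against 459 and 274 in C 12w and 92.0, 89.8 and 81.2 after SALI (log2 difference -2.57, SE 0.20, adjusted p = 3.37e-05). The sum of Atp5h and Gm10250 was 538 ± 66.1 (n = 3) in C 8w, 375 ± 135 (n = 2) in C 12w and 346 ± 38.9 (n = 3) in C 8w + A 4w. The direction for Atp5h and Cox5b therefore depended on whether the copy was counted with the gene. A difference in how reads were assigned between the 2 code series, as against one in the livers, was not tested, and the rises of subunits with copies elsewhere are uncertain in size and direction.

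**Figure D5:**
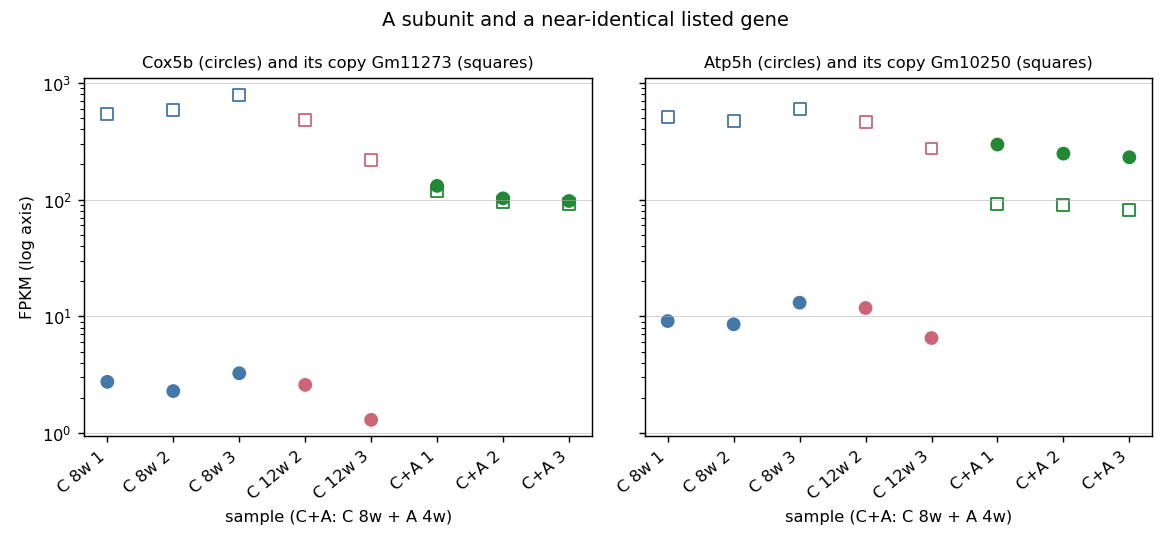
FPKM (log axis) of Cox5b and Atp5h (circles) and of their near-identical copies Gm11273 and Gm10250 (squares) in each sample, coloured by group. In all 5 MCLI samples the copy lies far above the subunit, while in the 3 C 8w + A 4w samples the copy is lower and the subunit has risen to its level or above.

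The genes Atp5g1, Atp5g2 and Atp5g3 encode the same mature subunit c, which forms the rotating ring of the ATP synthase, with different import sequences. In the last 225 coding bases before the stop codon Atp5g1 matched Atp5g2 at 191 positions and Atp5g3 at 180. The last 60 of these bases, with capitals where the 3 genes are not all alike (18 positions), show how synonymous differences still separate them.
Atp5g1: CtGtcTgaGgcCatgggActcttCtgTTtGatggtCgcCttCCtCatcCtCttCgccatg
Atp5g2: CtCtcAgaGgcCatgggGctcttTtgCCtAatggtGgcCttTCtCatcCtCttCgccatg
Atp5g3: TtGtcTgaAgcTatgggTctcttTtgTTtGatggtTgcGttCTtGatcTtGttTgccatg

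Among the listed rows Atp5g3 was the highest of the 3 in every sample, although the copies with the most windows shared with Atp5g1 and Atp5g2 have no row in the table, so that this order holds for the listed rows alone. It was at 445, 431 and 536 FPKM in C 8w, against 431 and 227 in C 12w and 422, 379 and 414 after SALI, with no difference past the test in any comparison (adjusted p between 0.14 and 0.499). Atp5g1 was at 5.60, 5.23 and 6.47 in C 8w, against 4.54 and 3.16 in C 12w and 11.8, 10.1 and 10.7 after SALI (log2 difference from C 8w 0.81, SE 0.14, adjusted p = 0.00235). Atp5g2 was at 0.147, 0.0956 and 0.121 in C 8w, against 0.0963 and 0.272 in C 12w and 18.1, 15.8 and 15.3 after SALI (log2 difference 3.95), and it had to differ, since it passed the floor through C 8w + A 4w alone. Only Atp5g3 lacked shared windows, against 11.1% elsewhere for Atp5g1 and 36.7% for Atp5g2.

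Where a complex IV subunit has isoforms, the form known from liver was in general the one listed higher. Cox6a1 was at between 349 and 1006 FPKM over the 8 samples, and the muscle form Cox6a2 at between 0 and 0.882 in 7 of them and 3.51 in C 8w + A 4w replicate 1, just outside the floor. Cox7a2 was at 171, 152 and 218 in C 8w, against 136 and 79.0 in C 12w and 255, 211 and 212 after SALI, and the muscle form Cox7a1 at between 0.390 and 1.56, just inside the floor. Cox6b1 was at 862, 835 and 1151 in C 8w, against 671 and 398 in C 12w and 1460.5, 1175 and 1167 after SALI. Its log2 difference of 0.42 from C 8w after SALI did not pass (adjusted p = 0.19) although the groups did not overlap, and its log2 difference from C 12w of 1.28 did (adjusted p = 0.00702). Cox8a was at between 413 and 913 in all samples, and Cox8b, Cox8c and Cox7b2 at between 0 and 0.208. Cox4i1, the form that liver uses of a subunit no oxidase lacks, was listed at 0 in all 8 samples, and Cox4i2, the form known from lung, was at between 0.151 and 0.706. Ndufa4, named as complex I but found in complex IV, was at 679, 624 and 814 in C 8w, against 464 and 430.2 in C 12w and 808, 686 and 847 after SALI, and its relative Ndufa4l2 at between 0.789 and 2.03.

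Set against C 12w, the subunits of C 8w + A 4w were higher in all complexes. Of 78, 45 were called higher (background 18.1%) and 0 lower (background 16.1%), with a median log2 difference of 0.69 against 0.01 over all genes. In 59 subunits all C 8w + A 4w samples lay above both C 12w samples (background 28.4%), and in 2 they lay below (background 24.6%). A rise of 1 or more on the log2 scale was called in 25 (background 6.67%) and such a fall in 0 (background 5.85%), and at an unadjusted p under 0.05 there were 56 rises and 0 falls, against 2580 and 2368 of all 11007 genes. The rises were 20 of 37 in complex I, 2 of 4 in complex II, 6 of 8 in complex III, 8 of 12 in complex IV and 9 of 17 in complex V. Without Ndufs5, Atp5g2 and Cox7a1, 43 of 75 were higher and 0 lower, since the first and second of these had to be higher through the floor. This comparison shares its samples with the other 2. The stellate cell and fibroblast markers moved with it, with sums of between 8.62 and 18.2 FPKM in C 8w + A 4w against 21.7 and 43.4 in C 12w, with 3 called lower (Col1a1, Col1a2 and Col3a1) and 1 higher (Lrat). Of the 11 hepatocyte markers 2 were called higher (Alb and Cyp2e1) and 4 lower (Apob, Serpina1a, Tat and Cps1), and of the endothelial markers 0 were called in either direction. The part of these cell types in the result was not tested. Among the 39 subunits with at most 2% of their windows in any other gene, 19 were higher and 0 lower (median 0.58). Over all genes with so few shared windows 14.4% were higher and 16.5% lower, with a median of -0.03. The count of subunits was thus not confined here to genes with copies. Leaving out either C 12w sample leaves 1 in that group, so that no count of calls is given for those fits. The 2 C 12w samples differed, with 73 of the 78 subunits lower in replicate 3 than in replicate 2.

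The 12 subunits described above for called falls in C 12w are followed here, as a description: they were chosen for low values in the same 2 C 12w samples, which tilts each difference upward. Ndufs7 was at 129, 111 and 111 FPKM in C 8w + A 4w, above both C 12w samples (log2 difference 0.65, limma adjusted p = 0.0276), while Ndufv1 overlapped C 12w and did not pass (0.20, adjusted p = 0.471). Ndufb6 was at 178, 150.3 and 127, above C 12w (0.97, adjusted p = 0.0176) and overlapping C 8w. Ndufa5 was at 167, 145 and 137 FPKM in C 8w + A 4w, above both C 12w samples (log2 difference 1.47, limma adjusted p = 0.00236) and overlapping C 8w (0.37, adjusted p = 0.202). Sdhc was at 43.8, 39.7 and 43.3, above C 12w (0.68, adjusted p = 0.00312), and Sdhb at 279, 219 and 217 (0.84, adjusted p = 0.0292). The call for Sdhb against C 12w was lost without replicate 3. Uqcrc1 was at 176, 142 and 163 (0.87, adjusted p = 0.00933) and Uqcrfs1 at 391, 301 and 375 (0.86, adjusted p = 0.0106). Cox6b2, with the values given above, was higher than in C 12w (0.50, adjusted p = 0.0195) and lower than in C 8w. Cox6a1 was at 842, 609.8 and 672, above both C 12w samples, but its log2 difference of 0.62 did not pass (adjusted p = 0.101). Atp5e was at 266, 204 and 221, above C 12w (0.87, adjusted p = 0.0342) and below all C 8w samples, although its difference from C 8w did not pass (adjusted p = 0.141). Atp5k was higher than in C 12w by 1.09 (adjusted p = 0.0223). Ndufs1, which had no called fall in C 12w (adjusted p = 0.0745) but fell after SALI, lay below both C 12w samples in all 3 C 8w + A 4w samples, and its log2 difference of -0.19 did not pass (adjusted p = 0.27).

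The 12 subunits with a log2 difference from C 12w of more than 2 all had more than 2% of their windows elsewhere. The differences were 7.39 for Atp5l, 5.60 for Ndufb4, 5.26 for Cox5b, 4.71 for Atp5h, 3.93 for Ndufs5, 3.88 for Atp5g2, 3.40 for Uqcrb, 3.22 for Ndufs3, 2.74 for Atp5f1, 2.66 for Ndufa12, 2.25 for Uqcr11 and 2.16 for Cox7c. Fold changes on this scale understate the change of genes near 0.

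The promoters of the subunits were searched for letters bound by factors known to drive respiratory genes, in the 250 bases before the start site (RefSeq, GRCm38.p6, both strands). Of the 84 subunits, 66 matched the promoter table. The letters GCGCATGCG, a core of the NRF1 site, were in 6 of the 66 (9.09%) and in 1.64% of 27025 genes, and CCGGAAG, an ETS site, in 12 (18.2%) and in 7.83%. AAGGTCA, an ERR site, was in 5 (7.58%) and in 4.70%, AAGATGG, a YY1 site, in 1 (1.52%) and in 5.18%, and CCAAT in 29 (43.9%) and in 37.5%. A match is a description of the letters and not of binding. Among the 29 matched subunits that fell in C 12w, 3 held the NRF1 letters, and their stretches of 60 bases are shown with the letters in capitals (both strands match there and overlap by all but 1 base). They lie at chr5:108434415-108434474 on the minus strand for Atp5k, at chr5:115349086-115349145 on the minus strand for Cox6a1 and at chr17:56717677-56717736 on the plus strand for Ndufa11.
Atp5k: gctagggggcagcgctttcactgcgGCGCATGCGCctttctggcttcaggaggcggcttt
Cox6a1: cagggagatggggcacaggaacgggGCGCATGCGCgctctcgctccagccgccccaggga
Ndufa11: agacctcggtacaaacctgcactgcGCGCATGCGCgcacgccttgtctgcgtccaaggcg

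Other genes of oxidative phosphorylation were counted by list, to be read against all genes tested, of which 13.1% rose and 6.90% fell in C 12w and 25.6% rose and 13.5% fell after SALI. Of 50 assembly factors tested, 2 rose and 9 fell in C 12w against C 8w (median log2 difference -0.21), and 10 rose and 14 fell in C 8w + A 4w against C 8w (median -0.09). Of 77 proteins of the mitochondrial ribosome, 0 rose and 10 fell in C 12w (median -0.19), and 15 rose and 10 fell in C 8w + A 4w against C 8w, both shares being below those of all genes. Of 18 TCA cycle genes, 1 rose and 4 fell in C 12w (median -0.34), and 5 rose and 2 fell after SALI. Of 19 regulators of mitochondrial biogenesis, 1 rose and 3 fell in C 12w, and 3 rose and 3 fell after SALI (15.8% each). Of 7 carriers of nucleotides and phosphate, 1 rose and 1 fell in C 12w, and 4 rose and 0 fell after SALI. Of 20 electron carriers and remaining subunits, 0 rose and 3 fell in C 12w, and 7 rose and 4 fell after SALI. Pet117 among the assembly factors, Ssbp1 among the regulators and Mrpl23 of the ribosome passed the floor only with C 8w + A 4w, and their rises are in these counts. Each count of 0 here was also 0 at an unadjusted p under 0.05 in limma. The median of each of these lists in C 12w lay above the -0.62 of the subunits.

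Among these, Cyc1, the cytochrome c1 of complex III, was at 271, 258 and 327 FPKM in C 8w and at 201 and 118 in C 12w (log2 difference -0.88, limma adjusted p = 0.0348). Cycs, cytochrome c itself, was at 3.55, 3.53 and 4.45 in C 8w, against 2.45 and 1.84 in C 12w and 79.6, 76.1 and 76.0 after SALI (4.02 from C 8w, adjusted p = 4.96e-08), and it shares 26.1% of its windows with other genes. Ppargc1a, a coactivator of respiratory genes, was at 2.52, 2.77 and 2.06 in C 8w, against 1.47 and 2.67 in C 12w and 1.54, 1.44 and 1.78 after SALI, with no difference past the test. Polrmt, the mitochondrial RNA polymerase, was at 10.7, 10.7 and 11.4 in C 8w, against 6.19 and 7.57 in C 12w and 5.49, 5.93 and 5.83 after SALI, and fell in both comparisons (adjusted p = 0.0105 and 0.000516).

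The 13 subunits encoded in mitochondrial DNA are made inside the organelle and join the same complexes. In C 12w against C 8w, 1 rose and 0 fell (also 0 at an unadjusted p under 0.05 in limma). The rise was mt-Nd4l, at 0 in C 8w and at 0.502 and 0.944 FPKM in C 12w, below the floor in both groups. The median log2 difference was 0.16, against -0.62 for the nuclear subunits, but it includes genes at or near 0 in both groups. For mt-Nd1, mt-Nd2, mt-Nd4, mt-Nd5, mt-Nd6 and mt-Cytb, at 144 FPKM or more in these samples, the differences lay between -0.09 and 0.33. In C 8w + A 4w against C 8w, 7 rose (background 25.6%) and 4 fell (background 13.5%). The 7 rises were mt-Nd3, mt-Nd4l, mt-Co1, mt-Co2, mt-Co3, mt-Atp6 and mt-Atp8, each at under 3 FPKM in at least 4 of the 5 MCLI samples. Of these 7, mt-Nd4l, mt-Co1, mt-Co3, mt-Atp6 and mt-Atp8 reached 1 FPKM in at most 1 MCLI sample and so passed the floor only through C 8w + A 4w, where they were high, so that they had to rise and the count is no result. Besides this, mt-Nd3, mt-Nd4l, mt-Co2, mt-Co3 and mt-Atp6 share between 97.99% and 100% of their windows with other genes, while mt-Atp8 shares 0% of its windows and was at 0 in 4 MCLI samples, 19.0 in C 12w replicate 3 and 586, 622 and 862 after SALI. The rises of the genes that share windows are uncertain in size and direction. mt-Nd2 was at 6091, 6049 and 4714 FPKM in C 8w and at 3197, 2791 and 3344 after SALI (log2 difference -0.85, adjusted p = 0.0196), and mt-Cytb fell by 0.92 (adjusted p = 0.0143). mt-Co1, the catalytic subunit of complex IV, was listed at 0 in all 5 MCLI samples and at between 11427 and 13820 in C 8w + A 4w, so no fold is given. It shares 51.1% of its windows with other genes.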

How the data were processed

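RNA sequencing of 8 Fah-/- mouse samples was used, grouped by their treatment labels (C 8w with 3, C 12w with 2 and C 8w + A 4w with 3). The authors deposited FPKM values in one table, in which fragments were scaled by gene length and mapped fragments. The submitters' processing notes name Bowtie 0.12.2 and the build mm8; their quantifier and annotation are not given in the sources used here. FPKM holds no counts, so counting error is unknown, and p-values measure the spread between samples.

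Genes that reached an FPKM of 1 in 2 or more samples were compared as log2(FPKM + 1) with limma 3.58.1 in R 4.3.3 (one fit of all samples on group means, eBayes with trend, two-sided, Benjamini-Hochberg over 11007 genes, threshold 0.05). The script was tested on simulated data. Shared windows of 50 bases and coding sequences came from GENCODE M21 transcripts (Python 3.11.15, Biopython 1.88), which may differ from the authors' annotation. Copies were aligned to the longest coding sequence.

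The members and all gene lists were chosen with earlier results of these data known. Named subunits are the 2 largest rises and falls per complex and comparison among called genes without overlap, those under 1 in all 5 MCLI samples and at 10 or more in all 3 others (Ndufs5, Atp5g2), and isoform families. Other subunits, Cyc1, Cycs, Ppargc1a, Polrmt, mt-Nd2, mt-Cytb and mt-Co1 were named after their values were seen, as was the split at 2% of windows elsewhere. Alternatives were another pseudocount, other floors, 3 scalings, eBayes without trend, the compared groups alone, each sample left out, a log2 limit of 1, a replicate block and subunits with few shared windows. The values of 1 subunit are not reported here by name.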

Additional observations from a re-analysis of the deposited data

How the results depend on the processing

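The count of subunits lower in C 12w than in C 8w was the least stable. It was 33 as reported, 15 with only the compared groups in the fit, 9 with a log2 limit of 1, 15 among subunits with at most 2% shared windows, and between 10 and 65 with one sample left out. With the replicate number as a block, over the 4 samples numbered 2 and 3, it was 0, and 0 with the pairing crossed, which was added after seeing the data. The numbers belong to different mice and the pairing correlation of their deviations was -0.179. Subunits higher in C 12w stayed at 0 in every alternative. From C 8w to C 8w + A 4w, 18 of 78 subunits rose. Among those with at most 2% shared windows 1 of 39 did. Falls went from 7 to 11 with median-ratio, 13 with summed-FPKM and 13 with quantile scaling. They were 14 with only the compared groups, 0 with the log2 limit and 4 of 39 among subunits with few shared windows. With 1 C 8w or C 8w + A 4w sample left out they were between 6 and 7. Against C 12w, rises went from 45 to 25 with the log2 limit and 19 among subunits with few shared windows, and were between 29 and 62 with one sample left out, and falls from 0 to 2 with quantile scaling and to between 0 and 1 with one sample left out. Counting each named single-gene result once per alternative, 499 kept their side of the threshold, 61 lost it and 0 reversed. All were picked as called results, and fits that leave 1 C 12w sample are in this total. In each replicate-block fit 10 were lost and 0 kept. Lost calls were 5 without C 8w replicate 1, 5 without replicate 2 and 6 without replicate 3, and not all are named above. Apart from the smaller sets compared, the cause of these changes was not tested. Depth is unknown and C 12w has 2 samples, so small differences there could not be resolved.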
